A study of Mus musculus with 64 samples.

Results

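Acetylation of lysine 27 on histone H3 (H3K27ac) in splenic B cells stimulated for 12 h was set against the same mark in naive B cells, using 6 of the 64 samples of the series. These are the 3 libraries of cells given 1 µM CpG for 12 h and the 3 libraries of unstimulated cells, called 0 h. The cells were CD23+ B cells from spleens of female F1 mice, bred from C57BL/6 mothers with a heterozygous deletion of Xist and Mus musculus castaneus fathers. Both groups share this cross, and the labels do not say which animals inherited the deletion or how old they were. Libraries were made by CUT&RUN: a nuclease, brought to the mark by an antibody, releases the chromatin there for sequencing. The deposited lists give peaks on the castaneus (Cast) allele, called in each library separately. Only this allele and only autosomes were used, and 3 libraries of 24 h served to estimate the spread and as a later time. The labels call the libraries biological replicates and tie no animal at 12 h to one at 0 h.

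H3K27ac is laid down by the acetyltransferases p300 and CBP at active promoters and enhancers, is removed by histone deacetylases, and cannot coexist on a histone tail with the Polycomb mark H3K27me3. Unmethylated CpG DNA is a ligand of the endosomal receptor TLR9, which signals through MyD88 and IRAK kinases to NF-κB, AP-1 and interferon regulatory factors. Resting follicular B cells that receive this signal enlarge, enter the cell cycle, secrete cytokines and can start towards antibody-secreting cells.

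At 12 h the 3 lists held 9760, 15767 and 8324 autosomal peaks, against 1448, 4741 and 5269 peaks at 0 h. These peaks covered 74.5, 123 and 58.9 Mb at 12 h, against 16.3, 48.6 and 51.8 Mb at 0 h. Every 12 h list was longer and covered more than every 0 h list, and the first 0 h list was the shortest by far. Mean coverage was 85.5 ± 33.6 Mb at 12 h and 38.9 ± 19.6 Mb at 0 h (SD, n = 3 each), a 2.36-fold difference of the geometric means. An exact two-sided permutation test gave p = 0.1 for coverage and for the number of peaks, the smallest value that 3 against 3 libraries allow. Without the short 0 h list the folds were 1.62 in coverage and 2.17 in peak number, against 2.36 and 3.28 with it. By chromosome, the same fold of geometric means ran between 2.09 on chromosome 14 and 2.69 on chromosome 18, and without the short list between 1.51 on chromosome 17 and 1.8 on chromosome 6.

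Single peaks were narrower at 12 h, with median widths of 5.42, 5.37 and 5.05 kb, against 9.74, 7.84 and 7.39 kb at 0 h. All 3 medians at 12 h lay under all 3 at 0 h (exact two-sided permutation p = 0.1, the smallest possible). Gene regions, meaning gene bodies with 2 kb on each side, held 82.7 ± 0.366% of the covered bases at 12 h and 80.8 ± 1.603% at 0 h (SD, n = 3 each), while such regions make up 50.4% of the autosomes. A peak touched 21.7, 34.6 and 17.6% of promoters at 12 h, against 2.46, 11 and 11.8% at 0 h. Read depth is unknown from these lists. The lowest peak maximum kept in a list, in steps of the signal that a single fragment adds, was 7, 6 and 6 at 12 h, against 11, 11 and 9 at 0 h. With at least 11 steps asked of every list the difference in coverage was 2.3-fold, but a step is scaled within its library, so this does not make the limits equal, and the part of the lower limit in the longer 12 h lists was not tested.

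**Figure D1:**
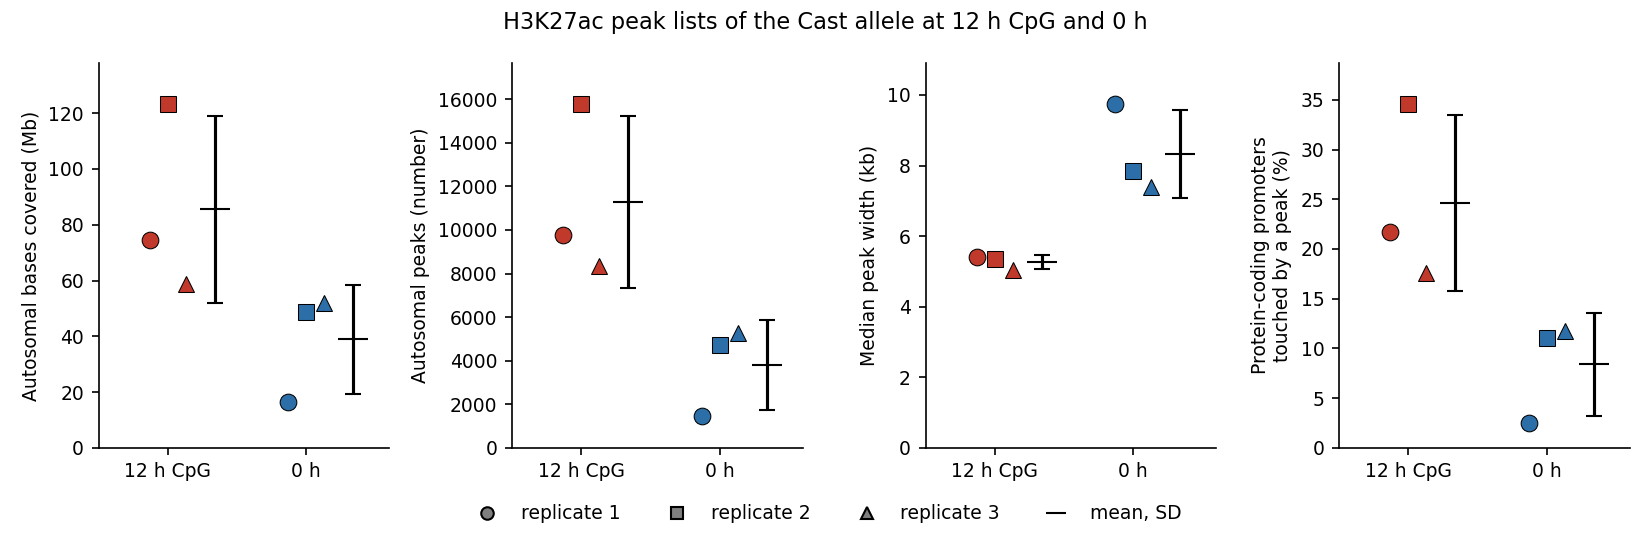
Autosomal bases covered in Mb, number of autosomal peaks, median peak width in kb and percent of protein-coding promoters touched by a peak, with 12 h left of 0 h; points are libraries and bars are means with SD. The 12 h lists hold 8324 to 15767 peaks and the 0 h lists 1448 to 5269, and the first 0 h list has the fewest peaks, the least coverage and the widest peaks.

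Acetylation at 12 h kept most of the regions seen at 0 h and added about as many bases again. A base found in at least 2 of 3 lists of a time was counted as acetylated at that time, and adjoining bases were joined into regions. By this rule 12 h held 10409 regions over 76.2 Mb and 0 h held 4505 regions over 40.8 Mb. Both times shared 37.5 Mb, which is 92.0% of the bases acetylated at 0 h. A further 38.7 Mb were found at 12 h only, which is 50.8% of the 12 h bases. Leaving out the second or the third 0 h list in place of the short one made the short list decide, so that 15.2 and 15.1 Mb counted as acetylated at 0 h and 80.7 and 80.8% of the 12 h bases as new.

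Of the 12 h regions, 4749 (45.6%) overlapped no 0 h list at all and 4333 (41.6%) overlapped a 0 h region. The regions with no 0 h counterpart had a median width of 4.00 kb, 30.5% of them touched a promoter, and 69.7% were also found at 24 h. Regions overlapping a 0 h region were wider, with a median of 7.58 kb, 34.5% touched a promoter, and 95.5% were also found at 24 h. In the other direction, 7 of the 4505 regions of 0 h (0.155%) overlapped no 12 h list, and 4447 (98.7%) overlapped a 12 h region. A place missing from a list means a signal under the caller's limit in that library, not an absence of the mark. Acetylation in more of the cells and more acetylation per cell cannot be told apart in these bulk samples.

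**Figure D2:**
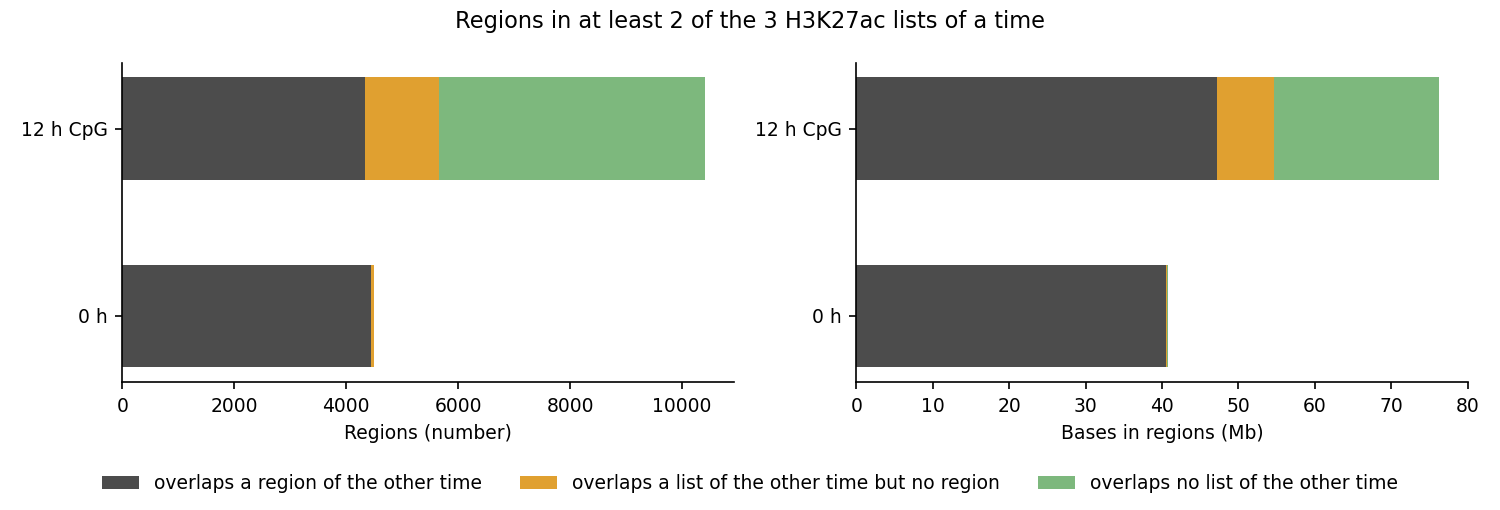
Number of acetylated regions (left) and their bases in Mb (right), from bases found in at least 2 of 3 lists, at 12 h above 0 h, split by whether they overlap a region of the other time, a list of the other time but no region, or no list. Of 10409 regions at 12 h, 4749 overlap no 0 h list, while 7 of 4505 regions at 0 h overlap no 12 h list.

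The genes that passed the test were higher after 12 h of CpG, and their regions were in the median shorter than those of all tested genes. The share of each gene region covered by peaks was compared with limma over the 9 libraries of 12 h, 0 h and 24 h, for the 9336 of 33069 autosomal gene regions with a peak in at least 3 of them. The share was higher at 12 h in 107 genes at a Benjamini-Hochberg adjusted p under 0.05, which is 1.15% of those tested, and lower in 0 (1682 higher and 4 lower at an unadjusted p under 0.05). Of the 107, 70 code for proteins and 37 are long non-coding RNAs. Their regions had a median length of 7.14 kb, against 24.5 kb for all tested genes. In 99 of them no 0 h list held a peak and in 8 a 0 h list did, in all 107 every 12 h list did, and in 106 every 24 h list did. A gene with no peak at 0 h could pass the filter only through its 12 h and 24 h lists, so its direction was fixed by the filter. The gain of the 107 ran between 30.6 and 96.7 percentage points. The count moved with the settings, from 0 with the replicate number as a block to 1190 (18.5% of 6427 tested) with only the 6 libraries in the fit. Leaving out the short 0 h list left 18 calls, and leaving out another list left between 0 and 172.

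Among the 5 genes with the smallest adjusted p was Derl3 on chromosome 10, which codes for derlin-3, a component of the machinery that removes misfolded proteins from the endoplasmic reticulum. Its 6.54-kb region was 92.2, 90.9 and 100% covered at 12 h, against 0% in each 0 h list, a difference of 94.4 ± 10.1 points (SE, limma adjusted p = 0.0126). Gadd45b, a stress and NF-κB response gene also on chromosome 10, was 98.5, 86.5 and 96.0% covered at 12 h and 0% in each 0 h list (93.7 ± 10.5 points, SE, limma adjusted p = 0.0126). Both regions were covered nearly whole in every 12 h library and bare in every 0 h library. Socs1 on chromosome 16, which codes for an inhibitor of cytokine receptor signalling, was 55.02, 57.5 and 52.7% covered at 12 h and 0% in each 0 h list (55.1 ± 8.30 points, SE, limma adjusted p = 0.0264). Rpl14 on chromosome 9, a protein of the large ribosomal subunit, was 88.0, 89.7 and 87.8% covered at 12 h and 0% in each 0 h list (88.5 ± 9.72 points, SE, limma adjusted p = 0.0126).

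For each of these 4 genes, a peak in all 3 of the 12 h lists spanned the whole 250 bases before the annotated start. No 0 h list could hold a peak there, because these bases are part of gene regions given above as 0% covered in naive cells. Their bare state in naive cells is therefore no separate result. The 250 bases are printed from RefSeq (GRCm38.p6, the build also called mm10), on the gene's strand, to show the letters of these promoters. Capitals mark, on either strand, matches to the κB consensus, the CCAAT box, the GC box, the TATA box, the interferon-stimulated response element (ISRE) core and the endoplasmic reticulum stress element; E-box matches were left in lower case. The windows are chr10:75893148-75893397 on the plus strand for Derl3, chr10:80929841-80930090 on the plus strand for Gadd45b, chr16:10785537-10785786 on the minus strand for Socs1 and chr9:120571267-120571516 on the plus strand for Rpl14.
Derl3: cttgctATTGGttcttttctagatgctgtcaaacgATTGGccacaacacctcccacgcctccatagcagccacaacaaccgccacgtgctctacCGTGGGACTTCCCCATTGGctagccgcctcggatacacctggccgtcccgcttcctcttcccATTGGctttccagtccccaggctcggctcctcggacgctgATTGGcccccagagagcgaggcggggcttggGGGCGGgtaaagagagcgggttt
Gadd45b: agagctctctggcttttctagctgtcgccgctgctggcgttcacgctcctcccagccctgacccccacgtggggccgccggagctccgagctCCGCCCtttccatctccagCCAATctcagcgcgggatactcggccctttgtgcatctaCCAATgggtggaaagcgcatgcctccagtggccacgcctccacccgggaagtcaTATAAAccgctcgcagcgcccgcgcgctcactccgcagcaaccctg
Socs1: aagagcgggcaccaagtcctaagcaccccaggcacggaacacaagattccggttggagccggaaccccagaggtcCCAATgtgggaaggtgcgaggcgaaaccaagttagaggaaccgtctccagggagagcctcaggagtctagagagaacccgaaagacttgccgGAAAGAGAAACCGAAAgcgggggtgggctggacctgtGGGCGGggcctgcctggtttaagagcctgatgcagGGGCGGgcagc
Rpl14: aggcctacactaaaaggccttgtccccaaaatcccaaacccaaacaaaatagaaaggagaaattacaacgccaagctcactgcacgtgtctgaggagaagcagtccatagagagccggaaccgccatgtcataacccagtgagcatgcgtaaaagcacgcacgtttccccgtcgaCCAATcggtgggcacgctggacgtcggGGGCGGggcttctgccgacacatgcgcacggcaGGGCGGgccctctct

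The Derl3 window held 5 CCAAT boxes and 1 endoplasmic reticulum stress element, searched as CCAAT and CCACG with any 9 bases between, the element bound by ATF6 and XBP1. This element has its first base at position -156 from the start, and a match to the κB consensus lies within it. Its own CCAAT, on the other strand, is 1 of the 5 CCAAT boxes. Of 31396 autosomal promoter windows of the same length, 0.108% held that element and 7.34% held a κB match. The Socs1 window held 2 overlapping matches to the ISRE core, GAAA repeated after any 2 bases, which 2.98% of windows hold. CCAAT was present in 33.7% of windows, the GC box GGGCGG in 33.0% and the TATA box TATAAA in 12.4%, so their presence here is common. These matches describe letters and do not show binding. The windows hold 16 CpG dinucleotides for Derl3, 22 for Gadd45b, 13 for Socs1 and 18 for Rpl14, against a median of 18 for the tested protein-coding genes with a window.

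**Figure D3:**
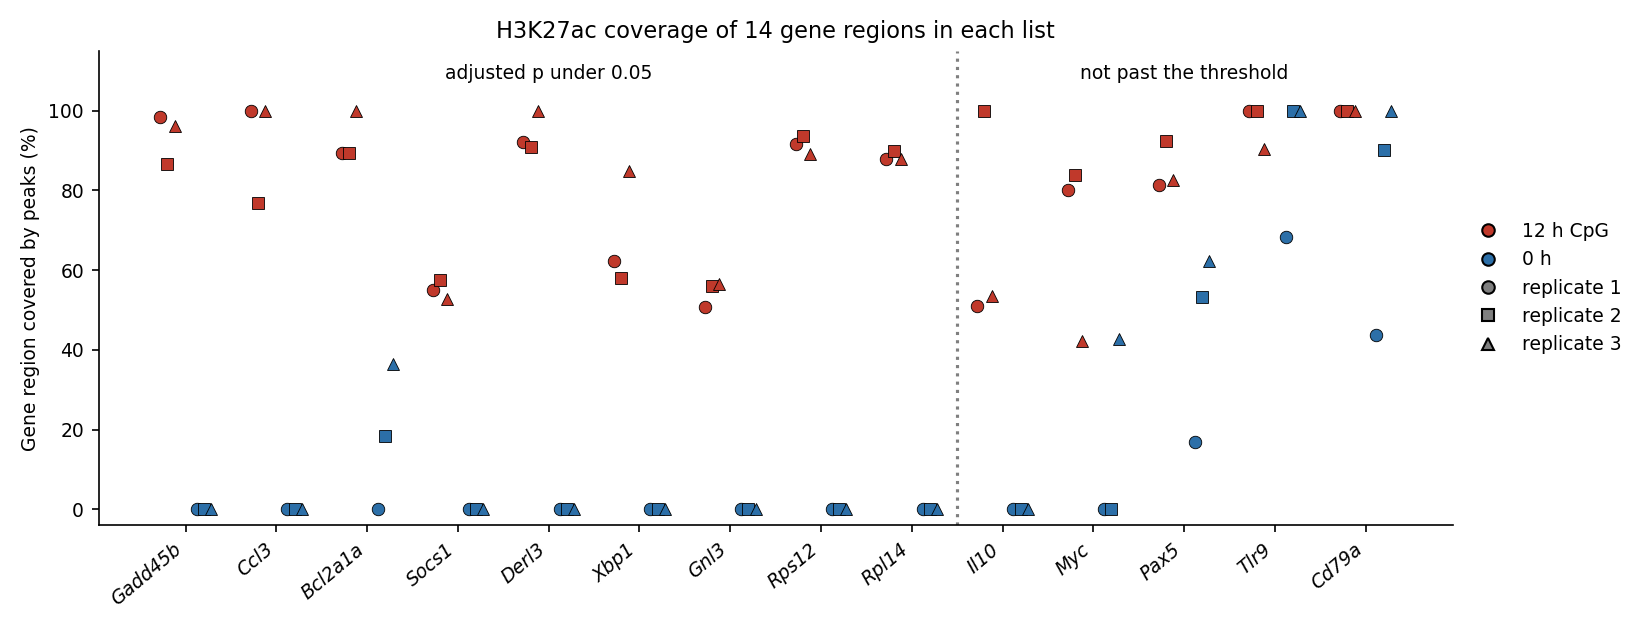
Percent of the gene region covered by H3K27ac peaks for named genes, 1 point per library, with 12 h left of 0 h and the symbol giving the replicate; 9 genes past the threshold stand left of 5 that are not. Derl3, Gadd45b and Rpl14 lie between 86.5 and 100% at 12 h and at 0% in the 3 lists of 0 h.

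Of 30 ribosomal protein genes listed, all 30 were tested and 5 were higher at 12 h, where 1.15% of all tested genes were, namely Rpl10a, Rpl13, Rpl14, Rps3 and Rps12. Rps12 was 91.7, 93.7 and 89.1% covered at 12 h and 0% in each 0 h list (91.5 ± 10.1 points, SE, limma adjusted p = 0.0126). Rpl13 was 49.2, 100 and 88.9% covered at 12 h and 0% in each 0 h list (79.4 ± 14.1 points, SE, limma adjusted p = 0.0425). The median difference of the 30 was 40.8 points, against 10.4 for all tested genes, and it was 33.0 without the short 0 h list, against 7.06. In 16 of the 30 (53.3%) every 12 h list lay above every 0 h list, as in 25.3% of all tested genes, and after scaling by autosomal coverage 8 lay above and 1 below. In 11 of the 30 (36.7%) no 0 h list held a peak, against 44.8% of all tested genes, and for these the filter fixed the direction. Rpl13, Rpl14, Rps3 and Rps12 were among them. The regions of the 30 are short, with a median of 7.51 kb, against 24.5 kb for all tested genes. The part of length in these differences was not tested. Over all 72 tested autosomal genes with a ribosomal protein symbol, a wider list made after values were seen, 11 were higher, beside the same 1.15%.

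In each of the lists that follow, the calls stand beside the 1.15% of all tested genes that were called, so 1 call in a list of about 20 is close to that background and is no result about the list. Of 20 tested genes of Myc and ribosome assembly 1 was higher, Gnl3, a nucleolar GTPase of proliferating cells, which was 50.8, 56.0 and 56.6% covered at 12 h and 0% in each 0 h list (limma adjusted p = 0.0425). Myc itself was 80.0, 83.9 and 42.3% covered at 12 h, against 0, 0 and 42.7% at 0 h (limma adjusted p = 0.147). The lowest 12 h value of Myc lay just under the highest 0 h value, so its groups overlapped. The small nucleolar RNA host genes Snhg3 and Snhg5, named here after their values were seen, were both higher. Snhg3 was 100, 88.8 and 96.1% covered at 12 h and 0% in each 0 h list (95.0 ± 9.80 points, SE, limma adjusted p = 0.0126).

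Of 15 tested DNA replication genes none passed the test (0 by limma, 6 at an unadjusted p under 0.05), and of 16 tested cell cycle genes 0 did (3 at an unadjusted p under 0.05). Pcna, the sliding clamp of the replication fork, was 68.5, 91.0 and 64.4% covered at 12 h, against 0, 0 and 39.99% at 0 h (limma adjusted p = 0.108). Its 12 h values lay above its 0 h values without overlap. Mcm4, a subunit of the replicative helicase, was 19.4, 18.5 and 16.8% covered at 12 h and 0% in each 0 h list (limma adjusted p = 0.0996). Of the genes outside the lists, Hmgb2, a chromatin protein of dividing cells, was higher, at 97.9, 83.7 and 81.4% at 12 h and 0% in each 0 h list (limma adjusted p = 0.025). It was chosen after its values were seen.

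In the secretory and plasma cell list 2 of 19 tested genes were higher, beside 1.15% of all tested genes, Derl3 and Xbp1, the transcription factor that drives the unfolded protein response and antibody secretion. Xbp1 was 62.4, 58.1 and 84.9% covered at 12 h and 0% in each 0 h list (68.5 ± 12.1 points, SE, limma adjusted p = 0.0422). In 10 of the 19 (52.6%) every 12 h list lay above every 0 h list, as in 25.3% of all tested genes, and after scaling by autosomal coverage 7 lay above and 3 below. No 0 h list held a peak in 10 of the 19 (52.6%), against 44.8% of all tested genes, and for these the filter fixed the direction. Derl3 and Xbp1 were among them. Prdm1, named after its values were seen, which codes for the plasma cell regulator Blimp-1, was 4.32, 12.5 and 4.1% covered at 12 h and 0% in each 0 h list (limma adjusted p = 0.197). Sdc1 and Jchain, which mark antibody-secreting cells, had too few lists with a peak to be tested.

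Of 22 tested members of the Toll-like receptor list, 4 had no peak in any 0 h list and 1 was higher (1.15% of all tested genes were), Ly96, which codes for the co-receptor MD-2 of TLR4. It was 60.5, 55.5 and 40.8% covered at 12 h and 0% in each 0 h list (52.3 ± 9.64 points, SE, limma adjusted p = 0.0427). Tlr9 was 100, 100 and 90.3% covered at 12 h, against 68.4, 100 and 100% at 0 h (7.31 ± 14.6 points, SE, limma adjusted p = 0.728). Unc93b1, the chaperone that carries TLR9 to endosomes, was 56.1, 72.1 and 54.1% covered at 12 h, against 0, 42.9 and 66.4% at 0 h. Both overlapped between the groups. Tab2, an adaptor of the TAK1 kinase, was 68.3, 78.4 and 68.5% covered at 12 h, against 0, 7.10 and 27.1% at 0 h, without overlap (limma adjusted p = 0.0996). Myd88, the adaptor of TLR9, had no peak in any of the 9 H3K27ac lists.

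None of 21 tested NF-κB genes passed the test (0 by limma, 4 at an unadjusted p under 0.05), although in 9 of them (42.9%) every 12 h list lay above every 0 h list, as in 25.3% of all tested genes. After scaling by autosomal coverage 1 lay above and 4 below, and the median of the 21 was -5.55 scaled points. Their median difference was 24.4 points with all lists and 11.1 without the short 0 h list. Rel, the c-Rel subunit, was 77.9, 97.6 and 73.3% covered at 12 h, against 55.9, 49.4 and 48.9% at 0 h (limma adjusted p = 0.195). Tnfaip3, the feedback inhibitor A20, was 82.6, 91.3 and 100% covered at 12 h, against 49.6, 59.9 and 52.5% at 0 h (limma adjusted p = 0.153). For both genes the 3 lists of 0 h were below the 12 h lists, and scaling by autosomal coverage turned the difference, to -53.5 scaled points for Rel and -40.4 for Tnfaip3. Without the short 0 h list these scaled differences were 3.27 and 4.14 points, so the turn rested on that list. Nfkbia, the inhibitor IκBα, was 59.9, 84.2 and 62.4% covered at 12 h, against 0, 0 and 99.9% at 0 h, so that its 0 h lists spanned nearly the whole scale.

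Among 18 tested AP-1 and early response genes 1 was higher, Gadd45b, beside 1.15% of all tested genes. Batf, an AP-1 factor of class switching, was 68.1, 89.3 and 91.3% covered at 12 h, against 0, 21.4 and 45.6% at 0 h (limma adjusted p = 0.104). Jun was 62.0, 66.6 and 22.0% covered at 12 h and 0% in each 0 h list (limma adjusted p = 0.106). Both stood above the 0 h lists in every 12 h list and missed the threshold. Fos had no peak in any of the 9 lists. The median difference of these 18 genes was 27.3 points with all lists and 2.75 points without the short 0 h list. None of 15 tested interferon response genes passed the test (0 by limma, 3 at an unadjusted p under 0.05).

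Of 26 cytokine and chemokine genes only 10 had enough peaks to be tested, and 1 was higher, beside 1.15% of all tested genes. Ccl3, a chemokine that attracts T cells and myeloid cells, was 100, 76.8 and 100% covered at 12 h and 0% in each 0 h list (92.3 ± 13.1 points, SE, limma adjusted p = 0.025). Il10, which codes for the regulatory cytokine of activated B cells, was 51.1, 100 and 53.5% covered at 12 h and 0% in each 0 h list (68.2 points, limma adjusted p = 0.0682). Ebi3, a subunit shared by IL-27 and IL-35, was 73.8, 71.9 and 71.7% covered at 12 h and 0% in each 0 h list (72.4 points, limma adjusted p = 0.076). Il10 and Ebi3 thus had no peak in any 0 h list and missed the threshold.

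Of 21 tested cytokine receptor, JAK and STAT genes 1 was higher, Socs1, and among 21 tested survival genes 1 was, Bcl2a1a, beside 1.15% of all tested genes. Pim1, a survival kinase induced by STAT proteins, was 83.3, 80.3 and 48.3% covered at 12 h and 0% in each 0 h list (limma adjusted p = 0.086). Il10ra was fully covered in each 12 h list, against 38.9, 61.8 and 67.2% at 0 h (limma adjusted p = 0.0846). Its scaled difference was -25.6 points with all lists and -0.0195 points without the short 0 h list. Bcl2a1a, a relative of Bcl-2 that NF-κB induces, was 89.4, 89.5 and 100% covered at 12 h, against 0, 18.4 and 36.6% at 0 h (74.6 ± 12.1 points, SE, limma adjusted p = 0.0321), and the difference was 65.5 points without the short 0 h list. Bcl2a1a has near-identical copies close by, so reads assigned to it are uncertain.

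Genes of B cell identity and of the B cell receptor held peaks in naive cells already, with 1 of 21 lineage factors and 0 of 23 receptor genes bare in every 0 h list. No lineage factor passed the test (0 by limma, 3 at an unadjusted p under 0.05), and no receptor gene did (0 by limma, 5 at an unadjusted p under 0.05). Pax5, the factor that maintains the B lineage, was 81.2, 92.3 and 82.5% covered at 12 h, against 17.0, 53.4 and 62.2% at 0 h (41.1 ± 13.8 points, SE, limma adjusted p = 0.162). Bach2, which holds back plasma cell formation, was 93.4, 96.8 and 89.2% covered at 12 h, against 34.3, 65.4 and 75.3% at 0 h (limma adjusted p = 0.195). Both lay above the 0 h lists in each 12 h list, with the short list lowest, and scaling turned the difference to -2.37 scaled points for Pax5 and -31.2 for Bach2. Without the short list the scaled differences were -4.85 and -14.9 points. Cd79a, a signalling chain of the receptor that was chosen with its values known, was fully covered in each 12 h list, against 43.7, 90.2 and 100% at 0 h (limma adjusted p = 0.378). Blk, a kinase of the Src family in B cells, was 92.5, 93.9 and 91.1% covered at 12 h, against 34.05, 34.7 and 65.8% at 0 h (limma adjusted p = 0.0904). Scaled, Cd79a differed by -60.6 points and Blk by -12.0 points.

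In antigen presentation 1 of 14 tested genes was higher, beside 1.15% of all tested genes, namely Rfxap, a subunit of the RFX complex that binds class II promoters. It was 62.7, 52.9 and 60.1% covered at 12 h and 0% in each 0 h list (58.6 ± 8.65 points, SE, limma adjusted p = 0.0261). Cd74, the invariant chain, was fully covered in each 12 h list, against 48.9, 54.6 and 100% at 0 h (limma adjusted p = 0.261), with a scaled difference of -51.1 points. None of 20 tested homing and quiescence genes passed (0 by limma, 3 at an unadjusted p under 0.05), and none of 20 tested activation genes did (0 by limma, 7 at an unadjusted p under 0.05). Ccr7, which guides B cells to the T zone, was 81.9, 100 and 82.4% covered at 12 h, against 0, 80.4 and 55.1% at 0 h. Among 22 tested metabolism genes and 22 tested histone-modifying enzymes 0 passed by limma in each (4 and 3 at an unadjusted p under 0.05). Ep300, which codes for the acetyltransferase p300 and was named after its values were seen, was 13.8, 26.7 and 0% covered at 12 h and 0% in each 0 h list.

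**Figure D4:**
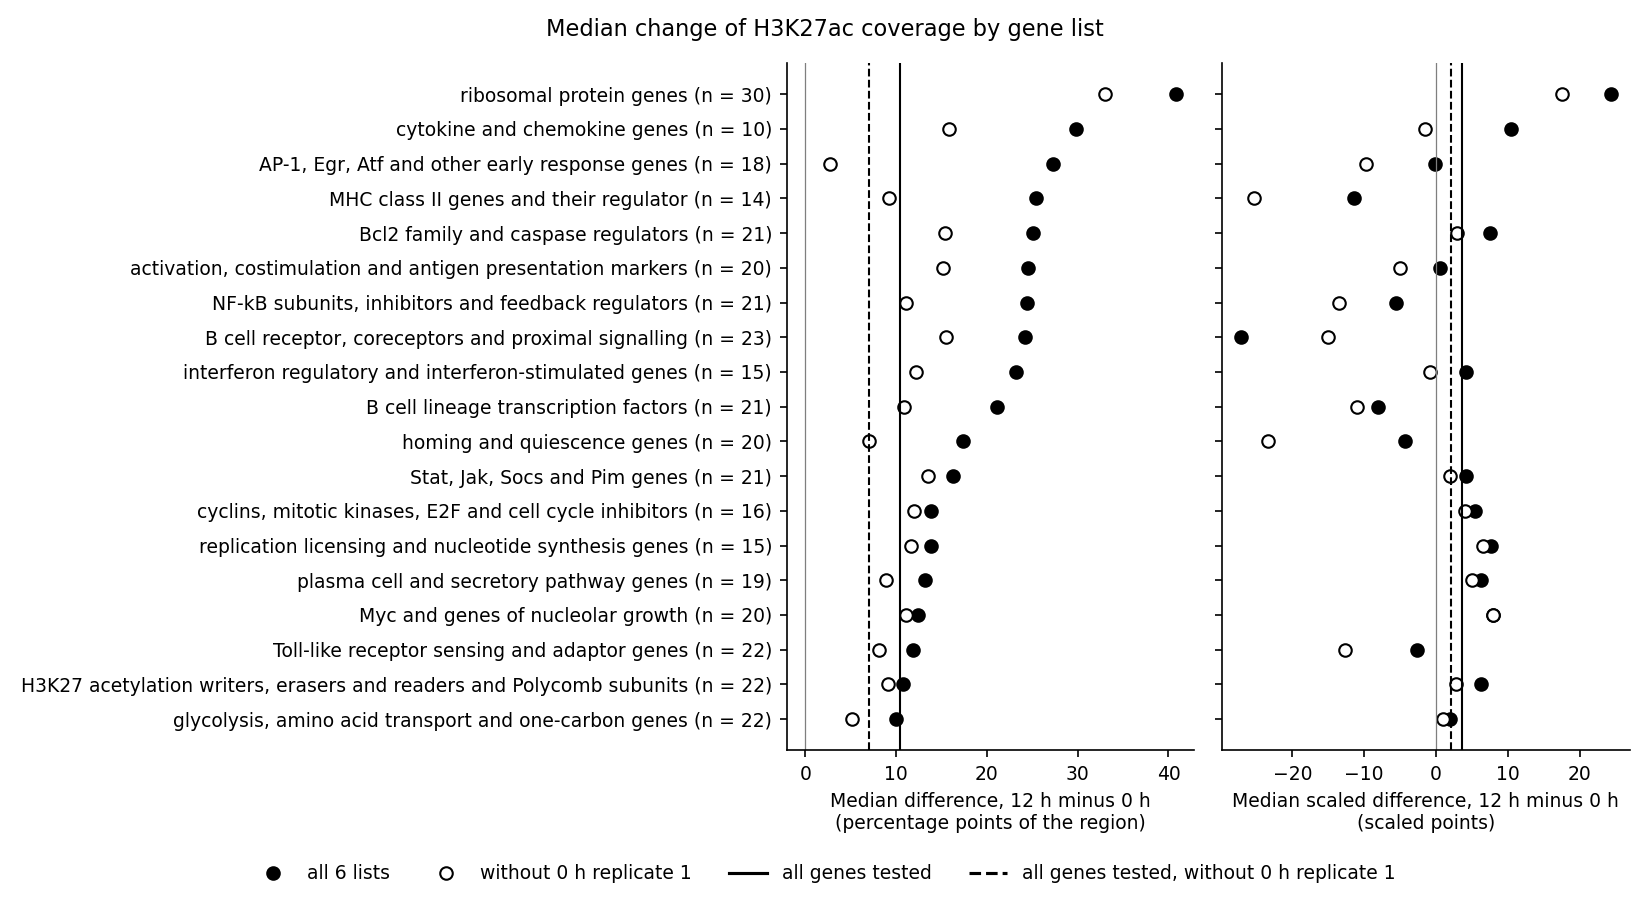
Median difference in percent covered, 12 h minus 0 h, over the tested members of each gene list, unscaled in percentage points (left) and scaled by autosomal coverage (right); filled points use all 6 lists, open points leave out the short 0 h list, and lines give the medians of all tested genes. The 30 ribosomal protein genes stand at 40.8 points unscaled, against 10.4 for all 9336 tested genes.

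Markers of other cells were scarce at both times. The 8 B cell markers averaged 79.7, 89.2 and 81.4% covered at 12 h, against 25.8, 60.5 and 75.9% at 0 h. Of 22 T and NK cell markers 16 had no peak in any of the 9 lists, and the mean of the 22 was 5.62 ± 1.72% at 12 h and 2.16 ± 1.89% at 0 h (SD, n = 3 each). Of 22 myeloid markers 15 had no peak in any of the 9 lists, with means of 2.39 ± 1.96% at 12 h and 0.898 ± 0.805% at 0 h (SD, n = 3 each). Erythroid and stromal markers averaged 6.85 ± 2.51% at 12 h and 2.06 ± 1.10% at 0 h (SD, n = 3 each), with 16 of 22 bare in all 9 lists. The 28 developmental genes listed as silent controls had no peak in any of the 9 lists. Mean marker coverage of every type thus stood higher in the 12 h lists, beside their greater total coverage, and its part in the differences above was not tested.

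In 15 genes (0.161% of those tested) every 12 h list lay below every 0 h list, against 2359 genes (25.3%) in the other direction. Without the short 0 h list 301 genes lay below and 2380 above, and scaled without it 2146 lay below and 1728 above. Fewer 0 h lists make a lack of overlap easier to reach in either direction. The split was not recomputed without another 0 h list, so the part of the short list in it was not tested. Gngt2, a G protein subunit named after its values were seen, was 51.0, 52.6 and 44.6% covered at 12 h, against 72.9, 72.6 and 72.4% at 0 h (limma adjusted p = 0.282). Vipr1, a receptor for vasoactive intestinal peptide likewise named after its values were seen, was 6.07, 9.36 and 7.42% covered at 12 h, against 14.1, 19.1 and 18.4% at 0 h (limma adjusted p = 0.28). In both genes the short 0 h list carried a peak as the other 0 h lists did.

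Scaled by total coverage, with the 9 libraries in the fit, no gene passed the test. The percentages of a list were divided by that list's autosomal coverage and multiplied by the mean coverage of the 9 libraries, so that a scaled value can pass 100. The count was 0 by limma, with 1527 higher and 163 lower at an unadjusted p under 0.05, and the smallest adjusted p was 0.115. Other settings did call scaled genes: 1324 with only the 6 libraries in the fit, 1167 on the log2(percent + 1) scale, 226 with scaling by the median of covered regions and 205 without trend and robust variance. The median difference over tested genes was 3.63 scaled points, against 10.4 unscaled, and 69.7% of tested genes remained positive, against 93.8%. Among all tested genes 1682 (18%) had every scaled 12 h list above every scaled 0 h list, and 689 (7.38%) had every one below. Of 205 genes looked at singly, list members for the most part, 54 had the opposite sign when scaled. The lists of lineage factors and of receptor genes turned their sign, with medians of -8.14 and -27.2 scaled points, while ribosomal protein genes had 24.4. Without the short 0 h list these medians were -11.0, -15.0 and 17.5 scaled points. Not every list with peaks at 0 h turned, as survival genes had a median of 7.52 scaled points with all lists and 2.98 without the short one. The division by a small total raises the first 0 h list most, because its covered share is 0.663% of the autosomes, against 1.98 and 2.11% in the others of 0 h.

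Of the bases of the short 0 h list 92.9 and 93.1% lay inside the second and the third 0 h list, and 91.9, 96.3 and 89.0% lay inside the 12 h lists, so it was a subset more than a different set. The 1.62-fold difference in coverage without it had an exact two-sided permutation p of 0.2, where 3 against 2 libraries allow no p under 0.1. The 12 h regions with no counterpart in any 0 h list numbered 4758 without it, against 4749, and 92.7% of 0 h bases were kept at 12 h, against 92.0%. The 107 genes all lack a peak in the short list, and 99 of them lack one in every 0 h list, so the size of their differences could hardly move when it was left out, while the number of calls was 18 without it.

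In 3854 tested genes that had a peak in another 0 h list but none in the short one, the median difference was 10.0 points with it and 3.08 without it, and 1.22 and -4.78 scaled points; that it shrank follows from how these genes were grouped. In the 1286 genes with a peak in all 3 lists of 0 h the median was 8.94 points with it and 3.49 without it, and -31.0 and -15.2 scaled points. In the 4181 genes with no 0 h peak it was 10.97 points, to which the short list adds nothing beyond another 0. The share of tested genes with a positive difference was 81.3% without it, against 93.8%, and 59.8% without it when scaled, against 69.7%.

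The number of calls fell with any 0 h list left out, not with the short one in particular. It was 18 without the first 0 h list, 8 without the second and 10 without the third. It was 0 without the first 12 h list, 0 without the second and 172 without the third. Of the 18 left without the short list, 17 were higher and among the 107, and 1, Tac4, was lower. Tac4, which codes for a tachykinin peptide made by haematopoietic cells, was at 0% in each 12 h list, against 0, 27.7 and 30.3% at 0 h.

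**Figure D5:**
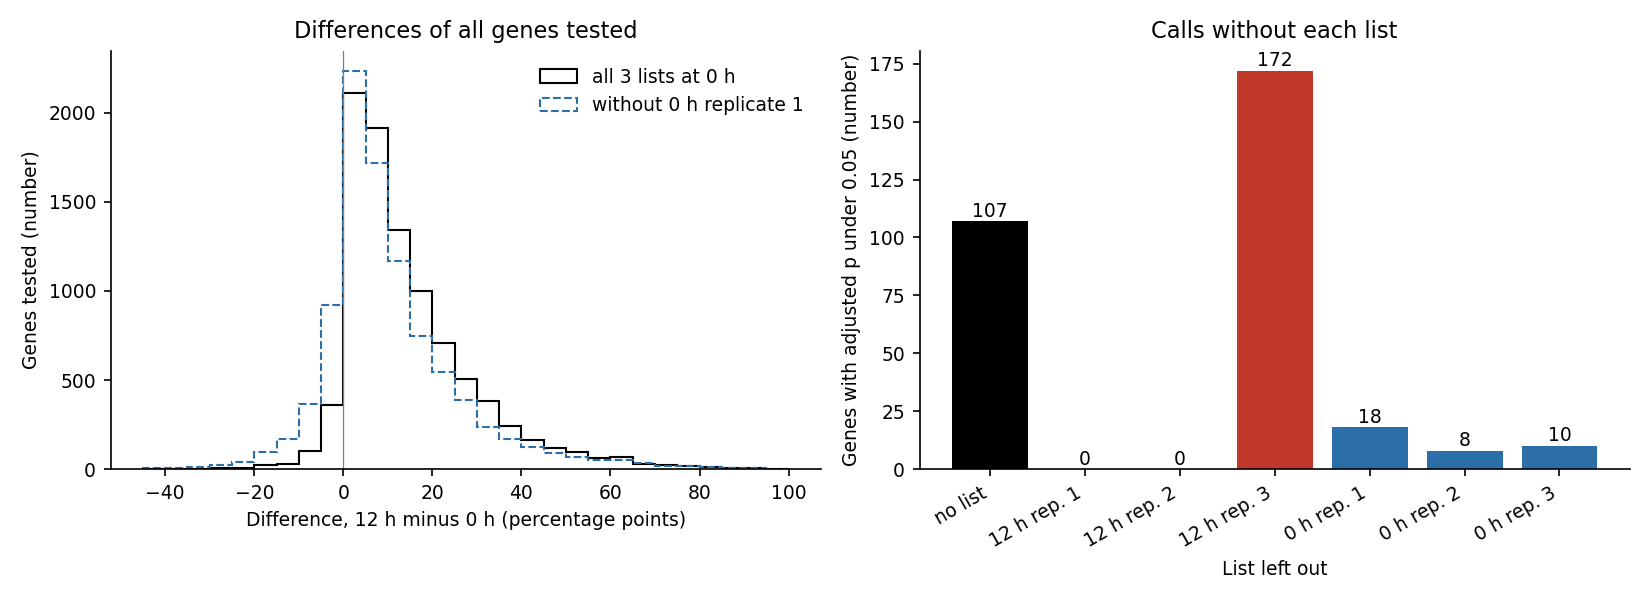
Left, numbers of tested genes by difference in percent covered, 12 h minus 0 h in bins of percentage points, with all 3 lists of 0 h and without the shortest (replicate 1); right, bars give the number of genes at an adjusted p under 0.05 with each list left out. The median difference is 10.4 points with the short list and 7.06 without it, and the number of calls lies between 0 and 172.

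Equal numbers of peaks gave another picture. With the 1448 peaks of highest signal kept in every list, coverage differed 1.21-fold, and among 2079 tested genes 18 were higher (0.866%) and 66 lower (3.17%). A gene with no kept peak at 12 h and 24 h could pass the filter only through its 0 h lists, so its direction was fixed by the filter. The same held, in the other direction, for a gene with no kept peak at 0 h. Without the short list and with 4741 peaks in each, coverage differed 1.00-fold, and 10 genes were higher and 33 lower of 5720 (0.175 and 0.577%). Il10 was among the higher genes at 1448 peaks, with 51.1, 100 and 53.5% at 12 h and 0% in each 0 h list. Dusp4, a phosphatase that restrains MAP kinases, was also among them, with 50.8, 70.0 and 54.9% at 12 h and 0% in each 0 h list. Cst3, the protease inhibitor cystatin C, was among the lower genes, with 0% in each 12 h and each 24 h list, against 79.3, 70.8 and 91.3% at 0 h. Nfkbid, a nuclear IκB protein, was at 0% in each 12 h list under this setting, against 72.8, 100 and 52.6% at 0 h, while its full lists gave 52.8, 100 and 78.2% at 12 h. These genes were named after their values were seen. A place among the top 1448 is a rank within a list, and ranks from lists of different length do not measure a change in the mark.

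Some long genes differed widely in kilobases of acetylated sequence without passing the test, and the 3 given here were named after their values were seen. Aff3, a nuclear factor expressed in lymphoid cells, held 155 ± 69.1 kb of acetylated sequence at 12 h and 32.1 ± 30.2 kb at 0 h (SD, n = 3 each). Tcf12, which codes for the E protein HEB, held 100.6 ± 47.2 kb at 12 h and 12.2 ± 13.7 kb at 0 h (SD, n = 3 each). Etv6, a repressor of the ETS family, held 82.7 ± 14.02 kb at 12 h and 15.3 ± 14.1 kb at 0 h (SD, n = 3 each). The spread between libraries was wide in Aff3 and Tcf12 at 12 h and narrow in Etv6.

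The 107 genes were set against the other marks of the series, which played no part in choosing them. H3K27me3 covered 0.767 ± 0.253% of their regions at 12 h (SD, n = 3) and 1.16 ± 1.18% at 0 h (SD, n = 3), against 2.05 and 1.40% over all tested genes. H3K9me3, the mark of constitutive heterochromatin, covered 0% at both times in 4 libraries each, against 0.112 and 0.0229% over all tested genes, so it was scarce in both. H2AK119Ub, the product of Polycomb complex PRC1, covered 11.1 ± 2.77% at 12 h (SD, n = 3) and 5.12 ± 1.43% at 0 h (SD, n = 4), against 10.9 and 2.97% over all tested genes. Suz12, a subunit of PRC2, covered 10.3 ± 1.02% at 12 h and 21.6 ± 8.33% at 0 h (SD, n = 3 each), against 6.25 and 10.4% over all tested genes. Ring1B, the catalytic subunit of PRC1, covered 22.9 ± 6.98% at 12 h and 18.3 ± 1.97% at 0 h (SD, n = 3 each), against 10.5 and 9.66% over all tested genes. By the share of regions with a peak the 107 stood lower for these 3. Suz12 peaks lay in 36.1% of them at 12 h and 61.1% at 0 h, against 51.0 and 72.0% of all tested genes. Ring1B peaks lay in 61.7 and 56.1%, against 64.2 and 67.3%, and H2AK119Ub peaks in 24.0 and 8.41%, against 37.2 and 11.3%. The 107 regions are shorter, with a median of 7.14 kb against 24.5 kb, and the part of length was not tested. The names of the Suz12 and Ring1B lists give a stringent setting that keeps a fixed top share of the signal, so their levels cannot be set against those of the histone marks. The difference between the 107 and other genes was not tested for any of these marks.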

How the data were processed

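Peaks of H3K27ac CUT&RUN libraries on the Cast allele were used from splenic CD23+ B cells, 3 libraries at 12 h of CpG, 3 at 0 h and 3 at 24 h. Per the submitters' processing notes, reads were handled with Trimmomatic 0.32, Bowtie2 2.3.4.1, Picard and deepTools 3.5.1 on mm10. The names of the deposited lists give SEACR in its norm and relaxed setting, with 1 list per library. Which SEACR version and which rule for assigning reads to an allele were used, and whether the yeast spike-in DNA of the protocol entered any scaling, is not given in the sources used here. Each list was deposited with 6 columns, and columns 1 to 3 give the positions of each peak. Columns 4 to 6, where the authors deposited the summed and highest signal and the place of the highest signal, served only to describe peaks and to rank them within a list. Positions are compared as the files give them.

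The percent of each autosomal gene region (RefSeq gene body with 2 kb each side) covered by peaks was computed with Python 3.11.15, numpy 2.4.6 and pandas 2.3.3. Regions with a peak in at least 3 of 9 libraries were tested with limma 3.58.1 in R 4.3.3 (trend and robust eBayes), on percent as such or scaled by autosomal coverage, with Benjamini-Hochberg adjustment over all of them and a threshold of 0.05. Single values per library were compared by exact permutation in Python with numpy. Figures were drawn with matplotlib 3.10.9. The limma step was tested on simulated data. As no source ties libraries to separate animals beyond the words used for replicates, p-values measure the spread between these libraries, and their number limits the precision. Gene lists (23) and the genes compared were chosen with earlier results of these data known. Genes were to be named if they passed both the unscaled and the scaled test, which 0 did, or as the 4 list members with the smallest p; all NF-κB, Toll-like receptor and B cell identity members could be named. Alternatives left out each library, changed the libraries in the fit, the filter, the scale, the variance model, the region and the lengths of the lists, or added a replicate block. Peaks on the C57BL/6 allele were not analysed here. The IgG libraries (3) have no list and were not used here. A result withheld for evaluation is not reported here.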

Additional observations from a re-analysis of the deposited data

How the results depend on the processing

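The number of genes called, 107 unscaled and 0 scaled, depended on most settings. Leaving out 1 library at a time gave between 0 and 172 calls unscaled and between 0 and 1 scaled. With only the 6 libraries there were 1190 unscaled and 1324 scaled calls, and 436 unscaled when the filter over 9 libraries was kept; a peak in at least 4 of the 6 left 0. A peak in at least 5 of 9 gave 541. On the log2(percent + 1) scale there were 1130 unscaled and 1167 scaled calls, and 360 and 205 without trend and robust variance. A flank of 5 kb left 2, peaks of at least 5000 bases left 7, and scaling by the median of covered regions gave 226. With equal numbers of the widest peaks 15 unscaled and 14 scaled genes were called, with equal numbers of the highest peaks 68 scaled (84 unscaled), and with 4741 peaks without the short list 43 and 22. The cause was not tested for these. The replicate block gave 0 calls. Same-numbered libraries did not deviate together (correlations of -0.0026, 0.0030 and -0.028). With 3 libraries per time this cannot tell whether the numbers pair samples, and the labels do not say.

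Coverage and peak number were higher at 12 h under the settings run on them, except coverage at 4741 peaks without the short list, where it was equal (1.00-fold). With a library left out the log2 difference in coverage was 0.70 to 1.53. Median width turned to 4.08 kb with the widest peaks and 1.16 kb with the highest, and Nfkbid to -75.1 points with the highest. With a 0 h list left out, lost bases were 3.15 to 7.32% and new bases 51.7 to 80.8%. Peak numbers were not recomputed at equal numbers, where they are equal by construction. The settings on the highest signal, on 5000 bases, on 11 steps and on the filters with 6 libraries were chosen after seeing the data. Signals under the caller's limit are not visible at any setting.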

Other observations

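Peaks on the sex chromosomes were few on the Cast allele. The X chromosome held 6, 20 and 13 peaks at 12 h, against 2, 7 and 8 at 0 h, beside 8324 to 15767 autosomal peaks at 12 h and 1448 to 5269 at 0 h. The second 12 h list held 2 peaks on the Y chromosome of these female mice, and the other 12 h lists and the 0 h lists held 0.

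Promoters of genes that became acetylated by 12 h and of genes acetylated throughout were both rich in CpG. Among 1107 protein-coding genes with a peak in every 12 h list and none at 0 h, 915 had a RefSeq window, with a median of 19 CpG dinucleotides in the 250 bases before the start. Among 964 protein-coding genes with a peak in all 3 lists of 0 h, 777 had one, with a median of 16. Tested protein-coding genes had a median of 18, and those not tested, of which 79.0% had a window, a median of 6. The κB consensus occurred in 10.6% of windows of the genes bare at 0 h, in 13.3% of those acetylated in all 3 lists of 0 h and in 10.96% of all tested. These shares are descriptions and were not tested.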
